A study of Mus musculus with 2 samples.

Results

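CTCF occupancy was described here across the HoxA cluster of the mouse, for its 10 genes Hoxa2, Hoxa3, Hoxa4, Hoxa5, Hoxa6, Hoxa7, Hoxa9, Hoxa10, Hoxa11 and Hoxa13 on chromosome 6. The genes were taken by name from an annotation that holds 21853 protein-coding genes on the chromosomes, and the peaks by position. A peak belonged to the cluster when its summit, the point of highest signal, lay within the 105-kb span of the cluster, which runs from 3′ of Hoxa2 to the start of Hoxa13, and 9 of 74283 peaks did. The study mapped CTCF by ChIP-seq, which sequences the DNA recovered with a protein by an antibody, in whole stomach of B6NCrl mice at postnatal day 0. There was 1 group with biological replicates 1 and 2, so no contrast between conditions could be made, and no test was run. The labels name the same donor and the same tissue sample for both replicates, so the spread between them may be technical. The sex was not collected, and no allele or treatment is named.

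Hox genes encode homeodomain transcription factors that give cells their position along the body axis. They stand in clusters in the order in which they act, with the 3′ genes active anteriorly and the 5′ genes posteriorly, and all HoxA members are transcribed from the minus strand. CTCF is a zinc finger protein that binds a directional DNA motif, blocks the spread of chromatin states between neighbouring genes and anchors chromatin loops together with cohesin. In Hox clusters CTCF sites are known for separating active from silent genes. The stomach is a mixture of epithelium, muscle, nerves, vessels and blood, so binding in fewer cells and weaker binding per cell cannot be told apart. Peak lists do not measure expression, so neither the activity of the genes nor the tissue label could be checked against marker genes.

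Of the 9 peaks, 4 held a match to a CTCF motif of 19 positions within 50 bp of the summit. Their sequences are shown because they carry the direction of the motif, which changes once along the cluster. They are from the mouse reference genome (mm10), 5′ to 3′ on the strand of the motif, with the motif in capitals. The site between Hoxa5 and Hoxa6 is chr6:52204614-52204714 on the minus strand, the site between Hoxa7 and Hoxa9 is chr6:52221800-52221828 on the minus strand, the site between Hoxa10 and Hoxa11 is chr6:52240532-52240560 on the minus strand, and the site between Hoxa11 and Hoxa13 is chr6:52257077-52257177 on the plus strand.
Hoxa5 to Hoxa6: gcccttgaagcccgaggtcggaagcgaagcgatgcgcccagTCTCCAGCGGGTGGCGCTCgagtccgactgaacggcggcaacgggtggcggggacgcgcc
Hoxa7 to Hoxa9: agaaaATTCCAGGAGATGGCAGTGtggct
Hoxa10 to Hoxa11: cgcagCCGCCACGAGATGGCGCACtcccg
Hoxa11 to Hoxa13: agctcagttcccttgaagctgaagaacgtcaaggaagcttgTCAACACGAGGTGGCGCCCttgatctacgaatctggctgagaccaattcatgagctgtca

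The 4 motifs differed from each other, with 9 to 14 identical positions of 19 in the 6 pairs, and 7 positions were the same in all 4. Their scores against a matrix built from the 1000 strongest peaks of chromosome 1 were 18.3, 15.4, 18.6 and 17.3, in the order printed. A window counted as holding the motif from a score of 11.1, which 1% of random windows of the genome met. The best match in a window lay no more than 7 bp from the summit in each of the 4 peaks. A CG pair, the site of DNA methylation, was present in 3 of the 4 motifs and absent from that between Hoxa7 and Hoxa9. Over all peaks outside chromosome 1, 72.5% had the motif, so the share in the HoxA span was lower than the background.

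Along the cluster the peaks stood in the gaps between genes. Bounded by the coding sequence of each principal transcript, 7 of the 9 gaps between members held a peak and 0 of the 10 coding spans did. The exceptions among the gaps were Hoxa2 to Hoxa3 and Hoxa9 to Hoxa10. The gaps make up 77860 bp and the coding spans 20026 bp of the span, so the gaps also offer more room. The place depends on the bounds, since Hoxa3, Hoxa7 and Hoxa10 have long alternative transcripts. With whole annotated genes as bounds, a choice made after seeing the data, 1 peak lay between genes, that between Hoxa11 and Hoxa13.

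**Figure D1:**
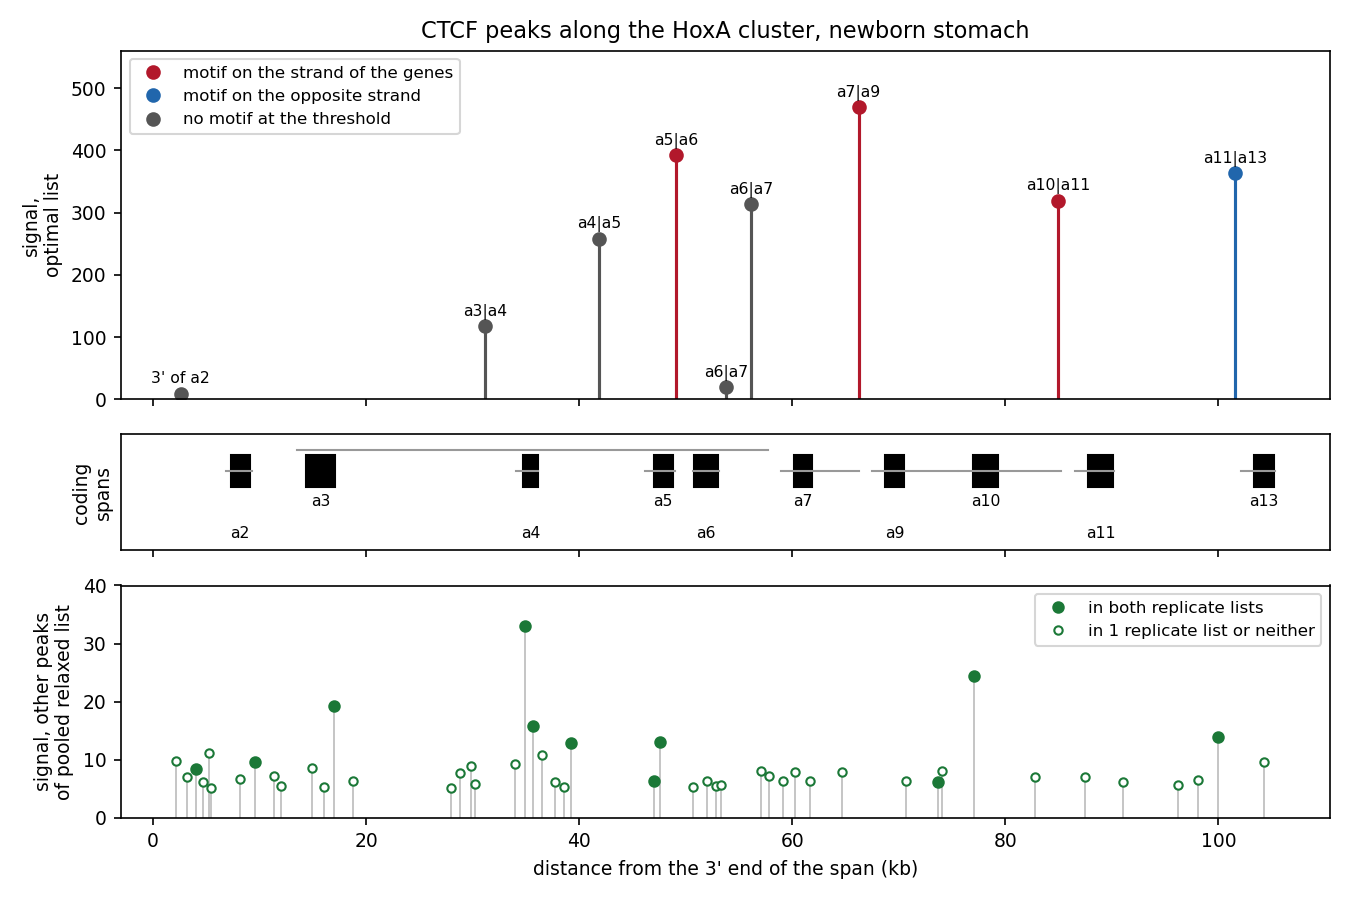
CTCF peaks along the HoxA span, by distance from its 3′ end in kb. The top panel gives the signal of the 9 peaks of the optimal list, coloured by motif, the middle panel the coding spans as boxes and the annotated genes as lines, and the bottom panel the signal of 48 weaker peaks of the pooled relaxed list. The 3 motifs on the strand of the genes lie 3′ of the 1 on the opposite strand, and no peak of the top panel stands over a box.

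The signals given below are the authors' own, from their peak caller, with a median of 76.6 over all peaks of the optimal list, which the authors made with IDR, a procedure that compares the ranks of peaks. Signal is not scaled between lists, so the values of the replicates in their own lists are lower than that of the optimal list and were used for ranks and ratios only. Of the 9 HoxA peaks, 5 had a signal over 300, against 18.0% of all peaks, and 7 had one over 100. The median HoxA peak stood at the 83.3rd percentile of all peaks. The other 2 were weak, with 9.21 and 19.6.

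At the 3′ end of the cluster stand Hoxa2, which patterns the hindbrain and the branchial arches, and Hoxa3, needed for thymus and parathyroid. The nearest peak to Hoxa2 lay 6671 bp downstream of its start site (chr6:52158012-52158307) and had a signal of 9.21, at the 0.536th percentile. Its signals were 5.25 in replicate 1 and 3.69 in replicate 2. It was the weakest peak of the span, had a best motif score of -1.64 and was missing from the conservative list, the other list that the authors made with IDR. No other peak of the optimal list lay within 10 kb of Hoxa2, and none lay between Hoxa2 and Hoxa3. In the conservative list the nearest to Hoxa2 lay 7735 bp away, in the coding sequence of Hoxa3, with a signal of 19.2.

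The coding part of Hoxa3 is far from the start of its principal transcript, which lies 5′ of Hoxa6. The peak nearest to that start site lay 1383 bp downstream of it, between Hoxa6 and Hoxa7 (chr6:52211602-52211868). Its signal was 313, with 194 in replicate 1 and 119 in replicate 2, at the 83.3rd percentile. It thus lies in an intron of Hoxa3 and is strong in both replicates. Its best motif score was 10.5, just under the threshold of 11.1. With both of its start sites counted, Hoxa3 had 5 peaks within 10 kb, the most of any member.

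Hoxa4 helps to pattern the cervical vertebrae. It was flanked by a peak on either side. The peak between Hoxa3 and Hoxa4 (chr6:52186671-52186794) had a signal of 117, with 60.4 in replicate 1 and 56.5 in replicate 2. It was the narrowest of the span at 124 bp and lay 5036 bp downstream of the Hoxa4 start site. The peak between Hoxa4 and Hoxa5 (chr6:52197356-52197586) had a signal of 258, with 150 in replicate 1 and 106 in replicate 2. It lay 5715 bp upstream of the Hoxa4 start site. Both lie in introns of Hoxa3, and neither reached the motif threshold, with best scores of 8.47 and 8.94.

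Hoxa5, which in mice is required for the lung and acts in the mesenchyme of the gut, had the peak closest to the start of a principal transcript. The peak between Hoxa5 and Hoxa6 (chr6:52204450-52204811) lay 70 bp upstream of the Hoxa5 start site. Its signal was 392, with 232 in replicate 1 and 161 in replicate 2, at the 91.7th percentile. It was the widest peak of the span, at 362 bp, and its window had the highest GC content, 73.3% against a median of 52.5% over all peaks. Its motif is the one printed above on the minus strand, the strand of the genes.

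RefSeq promoters, from 250 bases before to 50 after a start, were at hand for 9 of the 10 members, as 10 stretches that match mm10. Of these, 1 held a summit and a motif match, that of Hoxa5. The match there is the one shown for Hoxa5 to Hoxa6. The best scores in the other promoters ran from 1.11 at Hoxa11 to 9.73 at Hoxa7, all below the threshold.

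Hoxa6 and Hoxa7 take part in patterning the thoracic skeleton. The peak nearest to the Hoxa6 start site lay 654 bp upstream (chr6:52209228-52209523) and was weak, with a signal of 19.6, or 12.2 in replicate 1 and 6.46 in replicate 2. It had a best motif score of 2.30 and no partner in the conservative list. The strong peaks near Hoxa6 were its neighbours on either side, with 392 and 313.

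The strongest peak of the cluster lay in an untranslated exon of a longer Hoxa7 transcript, 46 bp from its start and 4303 bp upstream of the principal start of Hoxa7 (chr6:52221656-52221964). Its signal was 469, with 271 in replicate 1 and 201 in replicate 2. It ranked 1587th of all peaks and stood at the 97.9th percentile. In both replicate lists it was the highest peak of the span. Its motif score, 15.4, was the lowest of the 4 peaks with a motif.

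Hoxa9 is known for its role in blood progenitors and in limb and lumbosacral patterning, and Hoxa10 for the lumbar vertebrae and the uterus. For Hoxa9 the nearest peak was that strongest one, 4381 bp from a Hoxa9 start, and no peak of the optimal list lay between Hoxa9 and Hoxa10. The peak between Hoxa10 and Hoxa11 (chr6:52240403-52240675) lay in an untranslated exon of the longer Hoxa10 transcript, 306 bp from its start. Its signal was 319, with 189 in replicate 1 and 129 in replicate 2, at the 84.0th percentile. It had the highest motif score of the span, 18.6, on the strand of the genes.

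Hoxa11, which acts in the forearm and kidney, had that same peak as its nearest, 5262 bp away. Hoxa13 patterns the digits, the hindgut and the urogenital tract, and is the last gene at the 5′ end. The peak between Hoxa11 and Hoxa13 (chr6:52257004-52257266) lay 3670 bp from a Hoxa13 start, in an exon of the noncoding gene 9530018H14Rik. Its signal was 363, with 195 in replicate 1 and 169 in replicate 2, at the 88.7th percentile. It was the only peak of the span whose motif lay on the plus strand, opposite to the genes, with a score of 17.3. The 4 peaks with a motif were 17.2, 18.7 and 16.6 kb apart.

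Since neighbouring genes share peaks, the members are not independent. All 10 members had a peak within 10 kb of a start site, as did 69.7% of all protein-coding genes. Within 1 kb there were 4 members, Hoxa5, Hoxa6, Hoxa7 and Hoxa10, against 42.3% of all coding genes, and within 50 kb all 10, against 87.8%. The strongest peak within 10 kb had a median signal of 378 over the members and of 195 over all coding genes with a peak there. Hoxa2 stood apart from the other members, with 9.21 where they had 258 to 469.

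The replicates gave the same picture of the strong peaks. Among the 74283 strongest peaks of each replicate, 7 of the 9 HoxA peaks had a summit within 100 bp in both, against 83.2% of all peaks. The same 7 were those with a signal over 100 and those with a partner in the conservative list, which 88.5% of all peaks had. In these 7, the summits of the replicates lay no more than 12 bp from the summit in the optimal list. The ratio of replicate 1 to replicate 2 ran from 1.07 to 1.89 over the 9 peaks, with a median of 1.42. Over all shared peaks its median was 1.33 and its 5th to 95th percentiles were 0.922 to 2.19, so no HoxA peak lay outside that range.

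**Figure D2:**
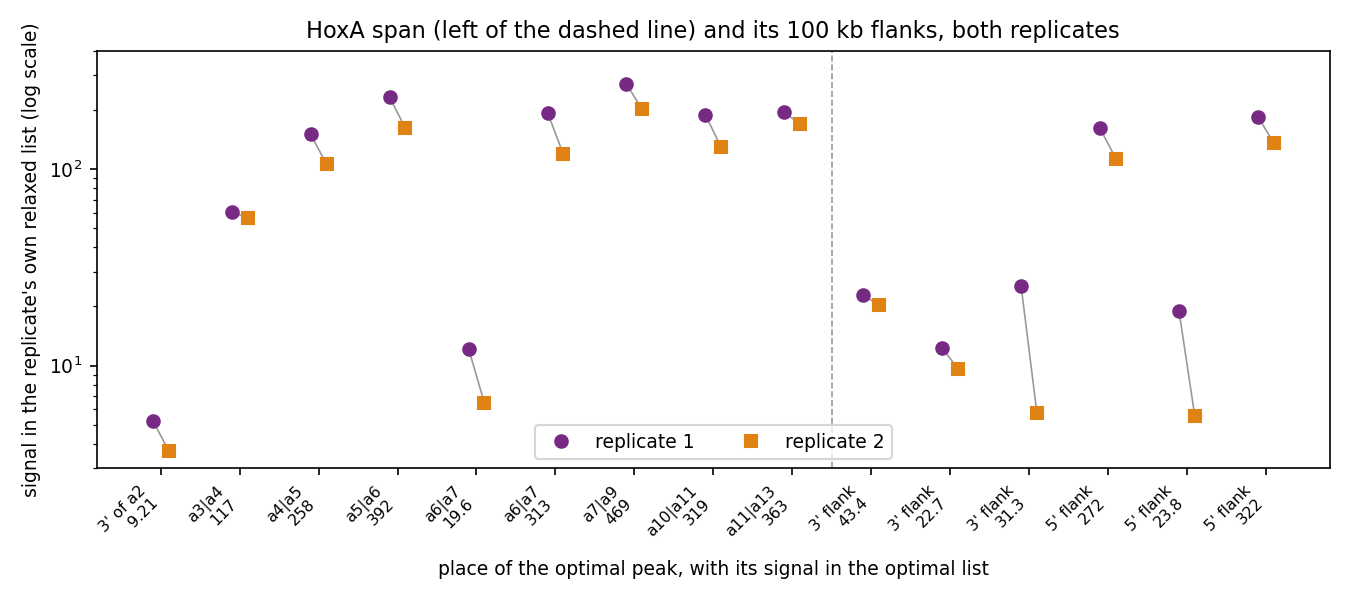
Signal of each optimal peak in the relaxed list of replicate 1 (circles) and replicate 2 (squares), on a log scale, for the 9 peaks of the HoxA span and the 6 peaks of its flanks. In the span the replicates differ by a ratio of 1.07 to 1.89, and the flank peaks of 31.3 and 23.8 differ by 4.42 and 3.42.

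The strong HoxA peaks included 3 below the motif threshold, given here as a description. Of the 7 HoxA peaks with a signal over 100, 3 had no motif at the threshold, or 42.9%, against 11.6% of such peaks outside chromosome 1. Their best matches are shown, in capitals and 5′ to 3′ on the strand of the match, because each lay close to the summit. The match between Hoxa3 and Hoxa4 is at chr6:52186710-52186738 on the plus strand, the match between Hoxa4 and Hoxa5 at chr6:52197457-52197485 on the minus strand, and the match between Hoxa6 and Hoxa7 at chr6:52211716-52211744 on the plus strand.
Hoxa3 to Hoxa4: cattcCATCCTCTTGGTGGTGCAAaacag
Hoxa4 to Hoxa5: aggaaTCGCCAGCAGAGCTCGCTTtagta
Hoxa6 to Hoxa7: ggcgaCGGCCACAGCGTGGCAGCAgcgag

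These matches lay 7, 3 and 2 bp from the summit, in the order printed. Their scores of 8.47, 8.94 and 10.5 say only that these letters are less like the matrix than the threshold asks. The stronger a peak, the rarer was a window without the motif: over all peaks outside chromosome 1, 19.3% of those with a signal of 100 to 200, 11.4% of those with 200 to 300 and 6.20% of those with 300 to 400 had none. The HoxA peaks of 117, 258 and 313 belong to these classes, in that order.

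**Figure D3:**
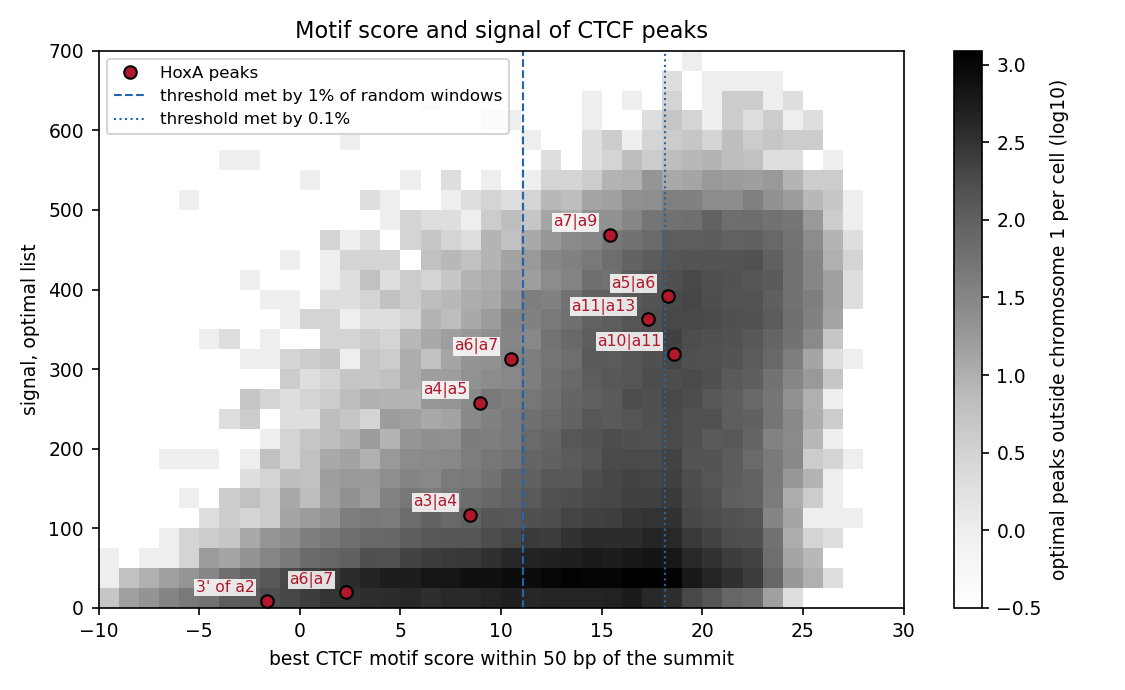
Best motif score within 50 bp of the summit against the signal in the optimal list, for the 9 HoxA peaks (points) and for all peaks outside chromosome 1 (grey, log10 of the number per cell). The peaks of 117, 258 and 313 lie left of the dashed threshold of 11.1, and the 4 peaks with a motif lie between 15.4 and 18.6.

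The reverse was also present, motif matches without a peak. The span held 33 matches at the threshold, 17 on the plus and 16 on the minus strand, or 313 per Mb against 153 per Mb elsewhere. Of these, 4 (12.1%) had a peak of the optimal list within 50 bp, against 13.9% of matches outside chromosome 1. Occupancy went with the score. Both matches of 18 or more had a peak (genome 68.1%), as did 2 of 5 between 15 and 18 (genome 19.9%) and 0 of the 26 weaker ones (genome 3.12% of those under 12 and 7.21% of those between 12 and 15).

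Of the 7 matches with a score of 15 or more, 3 had no peak of the optimal list. One lay in the coding sequence of Hoxa4, scored 15.4 and had a weak relaxed peak of 15.8 in the pooled list. The remaining 2 are printed because their scores are as high as that of the strongest HoxA peak, 15.4. The match at chr6:52206299-52206327, on the plus strand in the untranslated region 3′ of the Hoxa6 coding sequence, scored 15.9. The match at chr6:52245488-52245516, on the minus strand in the coding sequence of Hoxa11, scored 15.4.
Hoxa6 without peak: agacaAGGGCACCAGGGGGCAAAGccaat
Hoxa11 without peak: tgagcCCGCCACTAAATGGCACCCccgcg

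Neither had a peak of the pooled relaxed list within 50 bp. Just beyond that distance from the Hoxa6 match, the pooled list had a relaxed peak of 5.33 (summit chr6:52206228), which neither replicate list held. A motif score of this size was thus found in HoxA both with the strongest peak of the cluster and with no peak within 50 bp.

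Below the optimal list, the pooled relaxed list held 57 peaks in the span, 541 per Mb against 113 per Mb genome-wide. The relaxed lists of the replicates held 52 in replicate 1 and 43 in replicate 2. Of the 57, 48 were outside the optimal list, with signals of 5.06 to 33.0 and a median of 7.05, and 11 of these were in both replicate lists. A motif was found at 7 of the 48.

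The 3 strongest of those held by both replicates lay in the coding sequence of a member, where no peak of the optimal list stood. In Hoxa4 the pooled signal was 33.0, with 17.8 in replicate 1 and 13.8 in replicate 2. In Hoxa10 it was 24.5, with 16.0 in replicate 1 and 9.75 in replicate 2. In Hoxa3 it was 19.2, with 10.1 in replicate 1 and 7.45 in replicate 2. All 3 were in the conservative list, which held 10 peaks in the span, and none had a motif at the threshold. Genome-wide, 8.90% of the conservative peaks had no optimal summit within 100 bp, so the 2 lists are not nested.

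In the 100 kb on either side there were 3 peaks each, of which 1 on each side had a motif. On the 3′ side, from far to near, the peaks lay 78558, 61961 and 57231 bp from the Hoxa2 start, with signals of 43.4, 22.7 and 31.3. All were weaker than the 7 strong peaks within the cluster. The nearest, in an intron of the noncoding gene Halr1, had a motif of score 19 on the minus strand, but signals of 25.4 in replicate 1 and 5.74 in replicate 2, a ratio of 4.42. From there to the first peak of the span were 50560 bp without a peak of the optimal list.

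On the 5′ side, from near to far, the peaks lay 9822, 30978 and 45179 bp from the Hoxa13 start, with signals of 272, 23.8 and 322. The nearest (chr6:52270570-52270834) had 161 in replicate 1 and 113 in replicate 2, with a best motif score of 8.55. The middle peak had 19 in replicate 1 and 5.55 in replicate 2, a ratio of 3.42. The farthest (chr6:52305933-52306182) lay 7439 bp from Evx1, a homeobox gene beside the cluster, with 185 in replicate 1 and 136 in replicate 2. Its motif scored 14.8 and lay on the plus strand, as did that between Hoxa11 and Hoxa13. The 5′ side thus held 2 peaks in the range of the strong peaks of the cluster, and the 3′ side none.

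The genes of HoxB, HoxC and HoxD are paralogues of the HoxA genes, numbered alike, and their gaps can be set side by side. Where HoxA had a peak with a motif, the matching gap of the other clusters mostly had one too, with the motif turned the same way relative to the genes. Between genes 5 and 6 the strongest peak had a signal of 392 in HoxA, 402 in HoxB and 328 in HoxC. On the 3′ side of gene 9 it had 469 in HoxA, 416 in HoxB, 419 in HoxC and 401 in HoxD. Between genes 10 and 11 it had 319 in HoxA, 361 in HoxC and 261 in HoxD. In these 3 gaps every motif lay on the strand of the genes.

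On the 3′ side of gene 13 the motif lay opposite to the genes, in HoxA (363), HoxB (364) and HoxD (289). HoxC was the exception, with a peak of 24.6 and a best score of 4.17, below the threshold. Its neighbouring gap, between Hoxc11 and Hoxc12, which HoxA does not have, held a peak of 78.3 with a motif of score 18.7 opposite to the genes. In all, 9 pairs of a HoxA site and a site of another cluster had a motif in both, and in 9 of 9 it lay the same way. These pairs share the 4 HoxA sites with a motif, so they are not independent. The gap between genes 4 and 5 had a strong peak below the threshold in both HoxA (258, score 8.94) and HoxB (305, score 6.41), and none in HoxC. The gap between genes 6 and 7 differed, since the HoxA peak of 313 had no motif and the HoxB peak of 346 had one of score 17.1 opposite to the genes. Between genes 3 and 4, HoxA had 117, HoxB 43.4 and HoxD no peak of the optimal list.

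**Figure D4:**
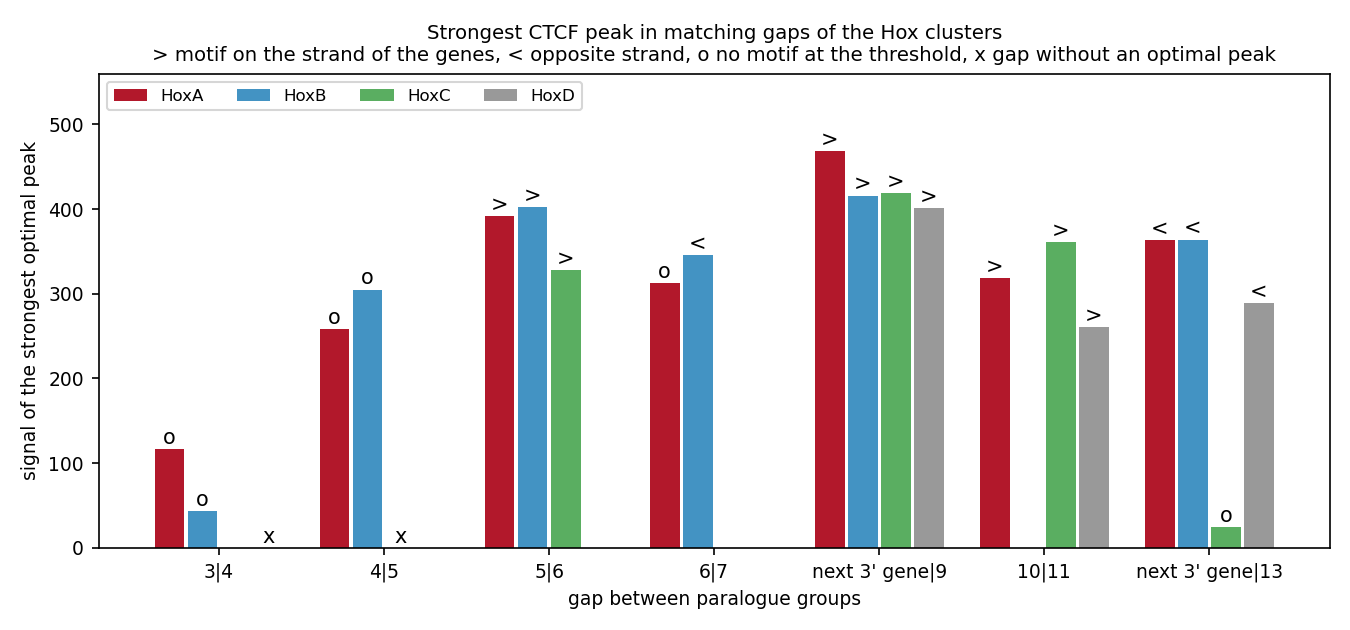
Signal of the strongest optimal peak in matching gaps of the Hox clusters, with HoxA at the left of each set and the direction of its motif as a sign above the bar. Bars are missing where a cluster lacks the genes, and an x stands where the gap exists but held no peak of the optimal list. In the gap on the 3′ side of gene 9 the 4 clusters have 469, 416, 419 and 401, all with the motif on the strand of the genes, and on the 3′ side of gene 13 HoxA, HoxB and HoxD have it on the opposite strand.

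The sequences of 2 such sets are shown to compare the sites themselves, 5′ to 3′ on the strand of the motif, with the motif in capitals. For genes 5 and 6 the sites are chr6:52204650-52204678 on the minus strand in HoxA, chr11:96303237-96303265 on the plus strand in HoxB and chr15:103013694-103013722 on the plus strand in HoxC. For the 3′ side of gene 9 they are the HoxA site printed above, chr11:96278940-96278968 in HoxB, chr15:102987585-102987613 in HoxC and chr2:74702387-74702415 in HoxD, all 3 on the plus strand.
HoxA 5 to 6: cccagTCTCCAGCGGGTGGCGCTCgagtc
HoxB 5 to 6: gtcaaTCGCCGGGAGGTGGCGCGCtctgc
HoxC 5 to 6: ccgagTCGGCACCAGGTGTCGCTGtgagc
HoxA 7 to 9: agaaaATTCCAGGAGATGGCAGTGtggct
HoxB 8 to 9: cacagTGGCCGCTAGATGGCATCCttgct
HoxC 8 to 9: acaagTGAACGCGAGGTGGCGCTGttgct
HoxD 8 to 9: gcattTGGCCACTAGAGAGCGCTGttgct

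Between genes 5 and 6 the HoxA motif shared 14 of 19 positions with HoxB and 13 with HoxC, against 7 to 11 with the other HoxB sites compared and 9 to 11 with the other HoxC sites. On the 3′ side of gene 9 it shared 10 positions with each of HoxB, HoxC and HoxD, which was not above what it shared with sites of other gaps in HoxB (8 to 11) and HoxD (8 to 12), but was above it in HoxC (8 to 9). In the 5 bases on either side of the motif, HoxA and HoxC had 7 of 10 alike there, and HoxA had 5 alike with each of HoxB and HoxD. That 7 was the highest of the pairs with a motif in both. The others ran from 0, for HoxA and HoxB on the 3′ side of gene 13, to 5. Between genes 10 and 11 the HoxA motif shared 12 positions with HoxC and 14 with HoxD. With sites of other gaps it shared 10 to 12 in HoxC and 12 to 14 in HoxD. On the 3′ side of gene 13 it shared 11 with HoxB, against 8 to 14 in other gaps, and 11 with HoxD, against 10. Over the 9 pairs the shared motif positions ran from 10 to 14. These counts are a description of few sites that were all chosen for a CTCF peak.

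As whole clusters, HoxA had the highest median signal, 313, against 86.3 in HoxB, 86.1 in HoxC and 261 in HoxD. It held 5 peaks over 300 of 9, against 7 of 16 in HoxB, 3 of 8 in HoxC and 2 of 7 in HoxD. Of the peaks with a motif, 3 of 4 in HoxA lay on the strand of the genes, 3 of 10 in HoxB, 3 of 5 in HoxC and 4 of 6 in HoxD. The low share in HoxB goes with the wide gap between Hoxb9 and Hoxb13, whose 5 peaks all lay opposite to the genes.

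Within 10 kb of a start site, all 10 genes of HoxA and all 10 of HoxB had a peak, 8 of 9 in HoxC and 8 of 9 in HoxD. The strongest peak of these lists was 416 in HoxB, at Hoxb7, Hoxb8 and Hoxb9, 419 in HoxC, at Hoxc8, and 408 in HoxD, at Hoxd3 and Hoxd4. Next came 361 at Hoxc9 and Hoxc10, and 401 at Hoxd8 and Hoxd9. The genes without one were Hoxc11 and Hoxd1. TALE homeodomain proteins bind DNA together with Hox proteins, and the strongest peaks at genes for them had signals of 278 at Meis2, 272 at Pknox2 and 257 at Meis1.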

How the data were processed

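CTCF ChIP-seq of newborn stomach was deposited as 5 peak lists in mm10, per the labels: a relaxed list of 300000 peaks for each replicate and for both pooled, and an optimal and a conservative list made with IDR, a procedure that compares the ranks of peaks. The deposited lists give per peak the signal of the authors' peak caller, a −log10 q-value (0.270 to 5.12 in the optimal list) and the offset of the summit. The score the authors deposited with each peak was not used. The sources used here do not state the aligner, the peak caller, the IDR threshold or the numbers of reads, so the depth behind a peak is unknown, and control libraries are not analysed here.

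Only peaks on assembled chromosomes entered, each placed by its summit. Gene models came from GENCODE M21, start sites from all its coding transcripts and coding spans from its principal transcripts. Sequence came from GRCm38, and promoters from RefSeq. The motif matrix rests on the 1000 peaks of highest signal on chromosome 1, with thresholds from 10000 random windows, and was checked on simulated data. Identity between sites counted equal letters at the 19 motif positions. No test was run, since there is 1 group. Named were all members, all optimal peaks of the span and flanks, the 3 strongest other peaks held by both replicates, and of other gene lists the strongest 3 and those without a peak. Part of the gene lists is not reported here. The members and lists were chosen with earlier results of these data known. Software was pysam 0.24.0, numba 0.67.0, pandas 2.3.3, numpy 2.4.6 and matplotlib 3.10.9 under Python 3.11.15.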

Additional observations from a re-analysis of the deposited data

How the results depend on the processing

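Of the 9 HoxA peaks, 7 were held by the conservative list, by the optimal peaks above the median signal and by the strongest peaks of each replicate alone, and the count of peaks in the span ran from 7 to 10 over these lists and over placement by overlap. The 6 flank peaks became 2 among the optimal peaks above the median signal, and 4 to 5 without a replicate. The 4 peaks with a motif became 2 at a threshold met by 0.1% of random windows, and stayed at 4 with a wider window or a matrix from chromosome 2. The 10 members with a peak within 10 kb became 4 at 1 kb, and 9 without either replicate, since Hoxa2 lost its peak of 9.21. The median percentile of 83.3 became 95.9 in the pooled relaxed list and 94.9 to 96.4 without a replicate, where the longer relaxed lists add weaker peaks. In the conservative list it was 83.5, but over the 7 peaks held there, which leaves out the 2 weakest. The 8 peaks in gaps became 1 with whole annotated genes as bounds. No paired analysis was possible because there is 1 group and no test. The depth behind a peak is unknown, and signals were not compared between lists as levels.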
